A study of Mus musculus with 68 samples.

Results

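Dcc, Robo1, Robo2, Lrp1b, Ptprd, Lrrc7, Cntn5, Lrrtm3 and Nlgn3 are 9 of the 18088 genes measured by RNA sequencing in the prefrontal cortex of young Adnp mice. Most encode receptors for axon guidance cues or adhesion proteins of the neuronal surface and the synapse. Lrrc7 encodes a postsynaptic scaffold protein and Lrp1b a receptor of the LDL receptor family. All 9 were found by symbol, 1 gene for each name. They had been selected on their lithium values, since several were lower under lithium than under vehicle in WT mice but not in HT mice. Those values are given here as a description, with no test. All 9 had a mean normalized count of at least 5 and so were among the 17922 genes tested.

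The study compared C57BL/6J mice labelled HT (heterozygous for Adnp, a gene for a zinc finger and homeodomain protein linked to neurodevelopment) with WT mice. Drugs reached the pups through the mother's milk from postnatal day 3 to 24, about 3 weeks, and cortex was taken on day 25. The groups were 10 HT and 10 WT mice on fluoxetine (a blocker of serotonin uptake), 9 HT and 8 WT mice on lithium (a mood stabiliser that inhibits GSK3 kinases), and 16 HT and 15 WT mice on vehicle. Each group held females and males, which makes 12 groups and 68 libraries of polyadenylated RNA. The labels do not say what the mutant Adnp allele removes, nor whether mice shared a litter, so p-values measure the spread between these libraries. Adnp itself was not lower in HT, with a median of 2334 normalized counts in HT vehicle mice and 1978 in WT vehicle mice, and genotypes are therefore named by their labels.

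Recovered reads ran from 22.4 M to 37.5 M (megareads) per library. Libraries were divided into 3 sets by clustering the levels of 361 pseudogenes, with the number of sets given to the clustering. The labels do not name these sets. All 17 lithium libraries and the 11 vehicle libraries with replicate numbers 6 and above (6 HT and 5 WT) formed 1 set. The 20 fluoxetine libraries grouped with 8 HT vehicle libraries, and the last set held 10 WT and 2 HT vehicle libraries. Lithium is therefore compared with all vehicle libraries and also with those numbered 6 and above. Markers of excitatory cortical neurons were abundant in every group, and their 7 genes summed to at least 109723 normalized counts in each library.

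Growing axons read secreted cues with surface receptors. Dcc binds netrins and mediates attraction, while Robo1 and Robo2 bind Slit proteins and mediate repulsion. At synapses, proteins such as neuroligins, LRRTMs and receptor phosphatases of the LAR family bind partners across the cleft and help to organise both sides. Many such genes are unusually long, and their transcription takes a long time.

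RefSeq promoter windows on GRCm38.p6, from 250 bases before to 50 after an annotated start, were found for 5 of the 9 genes (Robo1, Robo2, Lrrc7, Cntn5 and Lrrtm3), 8 windows in all. Windows of 4 genes are shown: Robo2, Lrrc7 and Cntn5 had the motif matches found, and Lrrtm3 had none. The Robo1 window and the other Robo2 windows, which are not shown, also had none. Capitals mark CAGCTG (an E-box) and GGGCGG (a GC box), searched on both strands. The windows lie at chr16:74411776-74412075 for Robo2, chr3:158561712-158562011 for Lrrc7, chr9:10904726-10905025 for Cntn5 and chr10:64090206-64090505 for Lrrtm3, all on the minus strand.
Robo2: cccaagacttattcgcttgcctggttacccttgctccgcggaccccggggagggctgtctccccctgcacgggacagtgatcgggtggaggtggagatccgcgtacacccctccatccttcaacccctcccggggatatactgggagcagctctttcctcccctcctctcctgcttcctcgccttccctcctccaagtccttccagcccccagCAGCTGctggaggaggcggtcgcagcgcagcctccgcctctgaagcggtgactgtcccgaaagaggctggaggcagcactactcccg
Lrrc7: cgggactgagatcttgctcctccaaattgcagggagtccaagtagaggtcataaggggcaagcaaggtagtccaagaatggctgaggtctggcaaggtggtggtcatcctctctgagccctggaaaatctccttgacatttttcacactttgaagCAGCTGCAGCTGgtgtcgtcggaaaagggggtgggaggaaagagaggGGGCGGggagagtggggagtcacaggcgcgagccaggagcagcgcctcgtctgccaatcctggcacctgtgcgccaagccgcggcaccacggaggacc
Cntn5: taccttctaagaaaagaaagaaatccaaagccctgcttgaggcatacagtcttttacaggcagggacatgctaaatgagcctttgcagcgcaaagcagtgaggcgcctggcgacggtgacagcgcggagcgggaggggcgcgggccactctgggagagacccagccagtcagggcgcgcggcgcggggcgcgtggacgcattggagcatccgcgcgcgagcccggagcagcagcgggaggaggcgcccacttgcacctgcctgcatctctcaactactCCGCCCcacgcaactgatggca
Lrrtm3: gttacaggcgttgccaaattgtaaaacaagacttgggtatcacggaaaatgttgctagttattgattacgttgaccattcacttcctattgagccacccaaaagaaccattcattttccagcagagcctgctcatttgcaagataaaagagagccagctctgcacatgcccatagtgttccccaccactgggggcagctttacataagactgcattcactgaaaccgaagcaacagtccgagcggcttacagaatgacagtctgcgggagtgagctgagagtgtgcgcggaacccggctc
CAGCTG occurred in the Robo2 window and at 2 places in the Lrrc7 window, and it was present in 16.3% of all 32851 promoter windows of this length. GGGCGG occurred in the Lrrc7 and Cntn5 windows, and in 35.7% of all windows. CTTTGAT, the letters bound by TCF/LEF factors of the Wnt pathway, was in none of the 8 windows and in 3.73% of all. TGACG, the half-site of CREB, was likewise in none of the 8 and in 20.8% of all. CG pairs numbered 17 in this Robo2 window, 12 in Lrrc7, 26 in Cntn5, 15 in Robo1 and 10 in Lrrtm3, where the median of all windows was 7.

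Most of these genes were long in the annotation used (GENCODE vM21 on GRCm38). Ptprd, a LAR family receptor phosphatase that binds postsynaptic partners, spanned 2271 kb on the minus strand of chromosome 4 (75941238 to 78211961). Lrp1b, a large receptor of the LDL receptor family, spanned 2058 kb on the minus strand of chromosome 2 (40595246 to 42653624). Cntn5, a contactin anchored to the membrane by a lipid, spanned 1244 kb on the minus strand of chromosome 9 (9660891 to 10904775). Dcc spanned 1097 kb on the minus strand of chromosome 18. Robo1 (738 kb, plus strand, 72308306 to 73046095) and Robo2 (520 kb, minus strand, 73891839 to 74411825) lie on chromosome 16. Lrrc7, which encodes the postsynaptic scaffold protein densin, spanned 479 kb on the minus strand of chromosome 3 (158082891 to 158562221). Lrrtm3, a leucine-rich repeat protein that binds neurexins, spanned 162 kb on the minus strand of chromosome 10 (63928472 to 64090277). Nlgn3, a postsynaptic neuroligin, was not long: it spanned 26.8 kb on the plus strand of chromosome X (101299168 to 101325963). Of the tested genes, 57.0% had a shorter span than Nlgn3, against 92.8% for Lrrtm3 and at least 98.6% for the other 7.

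Levels between genes were compared per kb of annotated exon, as the mean normalized count per kb over the 68 libraries. Nlgn3 was highest at 418 ± 37.2 per kb (SD, n = 68), followed by Ptprd at 331 ± 26.5, Lrrtm3 at 300.5 ± 33.6, Robo2 at 286 ± 33.7 and Lrrc7 at 261 ± 30.9. Robo1 stood lower at 81.9 ± 7.44 per kb, then Lrp1b at 60.1 ± 6.72, Dcc at 51.7 ± 5.08 and Cntn5 at 44.0 ± 6.69. The break between Lrrc7 and Robo1 held in all 68 libraries. Lrrtm3 and Robo2 did not differ beyond their spread: Lrrtm3 was the higher of the pair in 38 libraries. Transcripts of 1 gene differ in length, so this order is approximate.

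**Figure D1:**
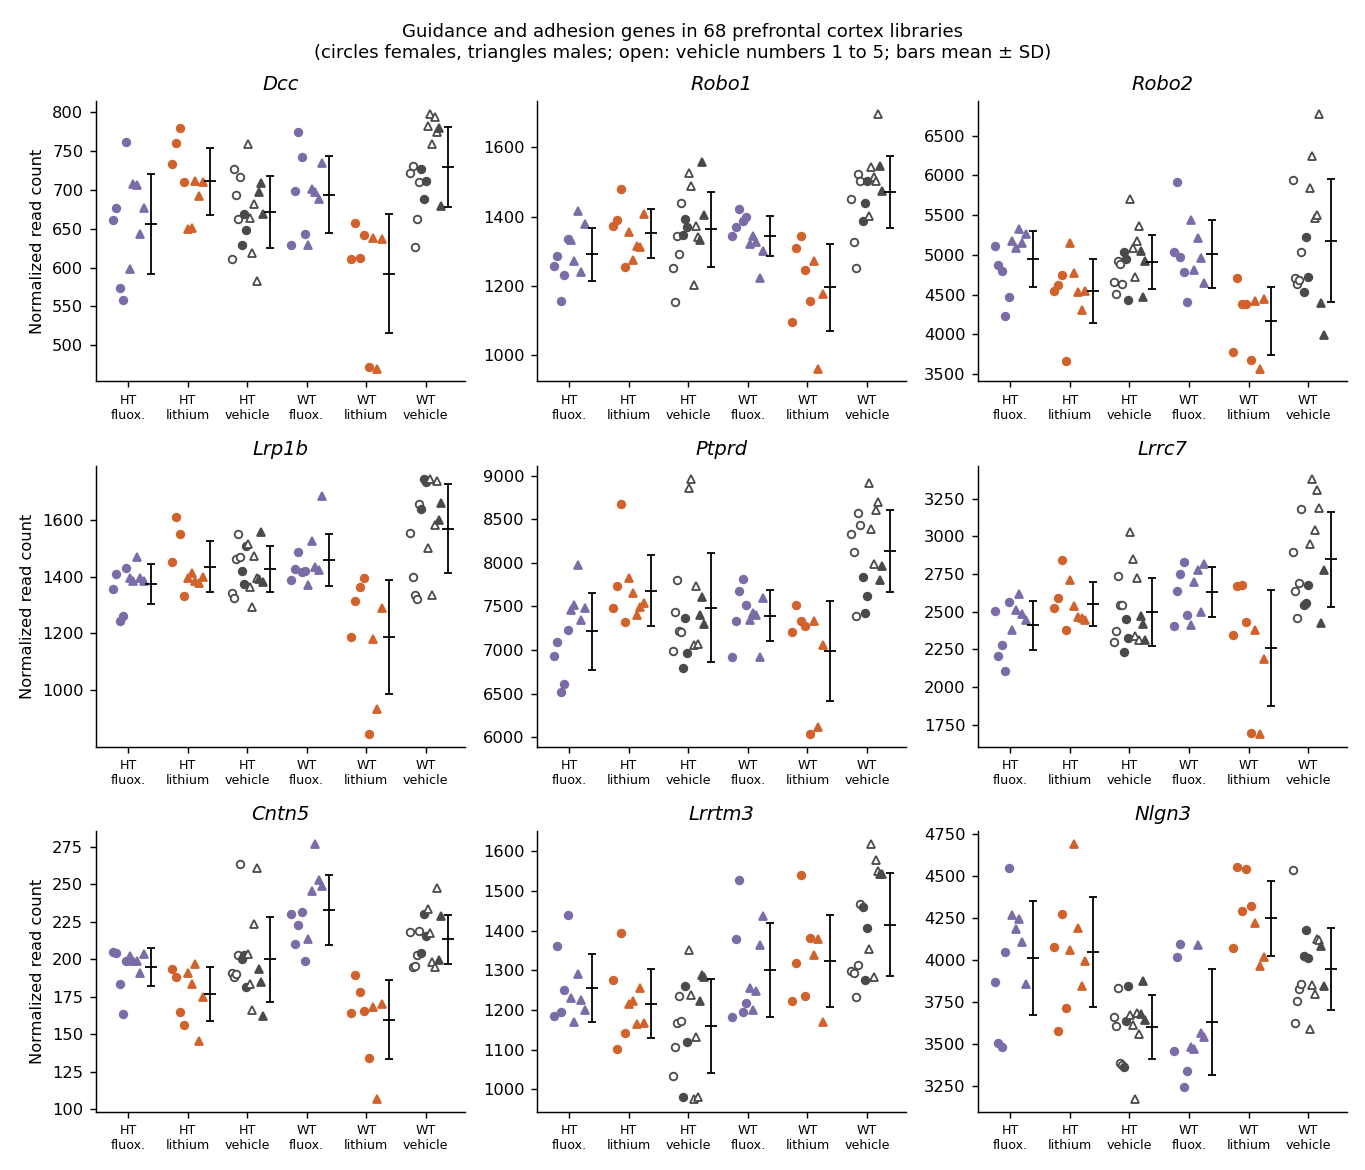
Normalized read count of each of the 9 genes (vertical axes, one scale per gene, not starting at 0) in every library, by genotype and drug. Circles are females, triangles males, open symbols vehicle libraries numbered 1 to 5, and bars the mean ± SD of a group. Among WT lithium mice, a female and a male lie far below the others in Dcc, Lrp1b, Ptprd and Lrrc7.

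Among guidance receptors, Dcc had 649 to 779 normalized counts in the 9 HT lithium mice (median 710) and 583 to 759 in the 16 HT vehicle mice (median 669). In WT it had 470 to 657 under lithium (median 624, n = 8) and 626 to 798 under vehicle (median 727, n = 15). The log2 difference of lithium minus vehicle mice was 0.09 (SE 0.05) in HT and -0.32 (SE 0.05) in WT. Most of the WT lithium values lay close together: 6 of them ran from 612 to 657, while female 5 had 472 and male 2 had 470.

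Robo1 had 1254 to 1480 normalized counts in HT lithium mice (median 1356) and 1152 to 1558 in HT vehicle mice (median 1359). WT lithium mice had 961 to 1344 (median 1212), and WT vehicle mice 1253 to 1698 (median 1503). The lithium difference was -0.01 (SE 0.04) in HT and -0.32 (SE 0.04) in WT, on the log2 scale. Against the vehicle libraries numbered 6 and above it was -0.05 (SE 0.05) in HT and -0.33 (SE 0.05) in WT. Robo1 was the guidance receptor whose WT value moved least with the choice of vehicle libraries.

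Robo2 behaved differently from its paralog. It had 3669 to 5147 normalized counts in HT lithium mice (median 4552) and 4429 to 5699 in HT vehicle mice (median 4923). WT lithium mice had 3572 to 4710 (median 4379), and WT vehicle mice 3999 to 6778 (median 5036). The log2 difference under lithium was -0.12 (SE 0.06) in HT and -0.31 (SE 0.06) in WT. Against vehicle libraries numbered 6 and above it was -0.09 (SE 0.06) in HT and -0.12 (SE 0.07) in WT. Within WT vehicle mice, the 10 libraries numbered 1 to 5 were higher than the 5 numbered 6 and above by 0.28 in log2 (SE 0.07) for Robo2 and by 0.19 (SE 0.07) for Lrrc7. The lithium differences of Robo2 in HT and WT thus lay within 1 SE of each other once vehicle libraries came from the same set as the lithium libraries.

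Lrp1b had the most negative WT lithium difference of the 9 genes against vehicle mice numbered 6 and above. In HT, lithium mice had 1331 to 1612 normalized counts (median 1399) and vehicle mice 1292 to 1557 (median 1408), and the log2 difference was 0.01 (SE 0.06). The 5 WT lithium females had 1187, 1314, 1366, 1396 and 846 normalized counts and the 3 males 1179, 933 and 1290. The WT vehicle females numbered 6 to 8 had 1641, 1745 and 1736, and the males numbered 6 and 7 had 1601 and 1659. Every WT lithium value lay below every one of these vehicle values. The log2 difference was -0.52 (SE 0.07) against these 5 mice and -0.43 (SE 0.06) against all 15 WT vehicle mice, whose range reached down to 1322.

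Cntn5 was the least abundant of the 9 genes. In HT, lithium mice had 145 to 197 normalized counts (median 184) and vehicle mice 162 to 264 (median 192), which overlapped. The WT lithium females had 164, 190, 178, 166 and 134, and the males 168, 107 and 170. The 15 WT vehicle mice had 195 to 247 (median 215), with no overlap. The log2 difference was -0.17 (SE 0.07) in HT and -0.46 (SE 0.07) in WT. Cntn5 was thus lower under lithium than in all vehicle mice on average in both genotypes. HT vehicle mice numbered 6 and above had 162 to 203 (mean 188), and HT lithium mice had a mean of 177. Against those vehicle mice the most negative HT difference of any of the 9 genes was -0.09. In WT the means were 160 under lithium and 216 in vehicle mice numbered 6 and above.

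The synaptic proteins differed among themselves. Ptprd had 7319 to 8675 normalized counts in HT lithium mice (median 7539) and 6793 to 8966 in HT vehicle mice (median 7334), a log2 difference of 0.04 (SE 0.04). WT lithium mice had 6040 to 7515 (median 7243) and WT vehicle mice 7390 to 8912 (median 8123), a difference of -0.23 (SE 0.04). Lrrc7 had 2378 to 2842 in HT lithium mice (median 2525) and 2231 to 3029 in HT vehicle mice (median 2437), a difference of 0.04 (SE 0.06). WT lithium mice had 1691 to 2676 (median 2364) and WT vehicle mice 2422 to 3381 (median 2778), a difference of -0.37 (SE 0.06). Both genes had a lower mean under lithium in WT, where lithium and vehicle mice overlapped.

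Against all vehicle mice, Lrrtm3 and Nlgn3 stood apart from the other 7. Lrrtm3 did not against those numbered 6 and above. There, 27.1% of 550 other genes spanning at least 300 kb had a lower WT difference than Lrrtm3. The share was 24.9% for Ptprd and 39.5% for Robo2. Lrrtm3 had 1101 to 1395 normalized counts in HT lithium mice (median 1216) and 976 to 1351 in HT vehicle mice (median 1170), a log2 difference of 0.07 (SE 0.05). Its WT values were 1171 to 1539 under lithium (median 1330) and 1232 to 1618 under vehicle (median 1408), a difference of -0.11 (SE 0.06). Nlgn3 had a higher rather than a lower mean under lithium, with 3577 to 4689 in HT lithium mice (median 4059) and 3173 to 3876 in HT vehicle mice (median 3637), a difference of 0.16 (SE 0.04). In WT it had 3966 to 4555 under lithium (median 4256) and 3588 to 4537 under vehicle (median 3855), a difference of 0.09 (SE 0.05). The description of lithium-sensitive genes thus does not hold for Nlgn3 in the direction named.

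Over the 9 genes, the median log2 difference under lithium was 0.04 in HT and -0.32 in WT, beside medians of 0.00 in HT and -0.02 in WT over all 17922 genes tested. Against vehicle mice numbered 6 and above, the medians were 0.03 in HT and -0.24 in WT. The lithium difference in HT minus that in WT was positive for all 9 genes, from 0.07 (SE 0.06) for Nlgn3 to 0.44 (SE 0.08) for Lrp1b, with a median of 0.29. With vehicle mice numbered 6 and above it ran from 0.03 (SE 0.09) for Robo2 to 0.52 (SE 0.10) for Lrp1b. In bulk tissue, fewer cells of a type and less RNA per cell cannot be told apart.

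In HT, lithium and vehicle mice overlapped for all 9 genes with either set of vehicle mice, where 0.0112% of all genes were lower without overlap against all vehicle mice and 0.162% against those numbered 6 and above. WT lithium and vehicle mice did not overlap for 1 of the 9 genes (Cntn5, lower), where 0.0781% of all genes tested were lower without overlap. Against vehicle mice numbered 6 and above, 4 did not overlap (Dcc, Robo1, Lrp1b and Cntn5), where 0.413% of all genes were lower without overlap. The rule used this contrast, so these counts describe the choice.

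**Figure D2:**
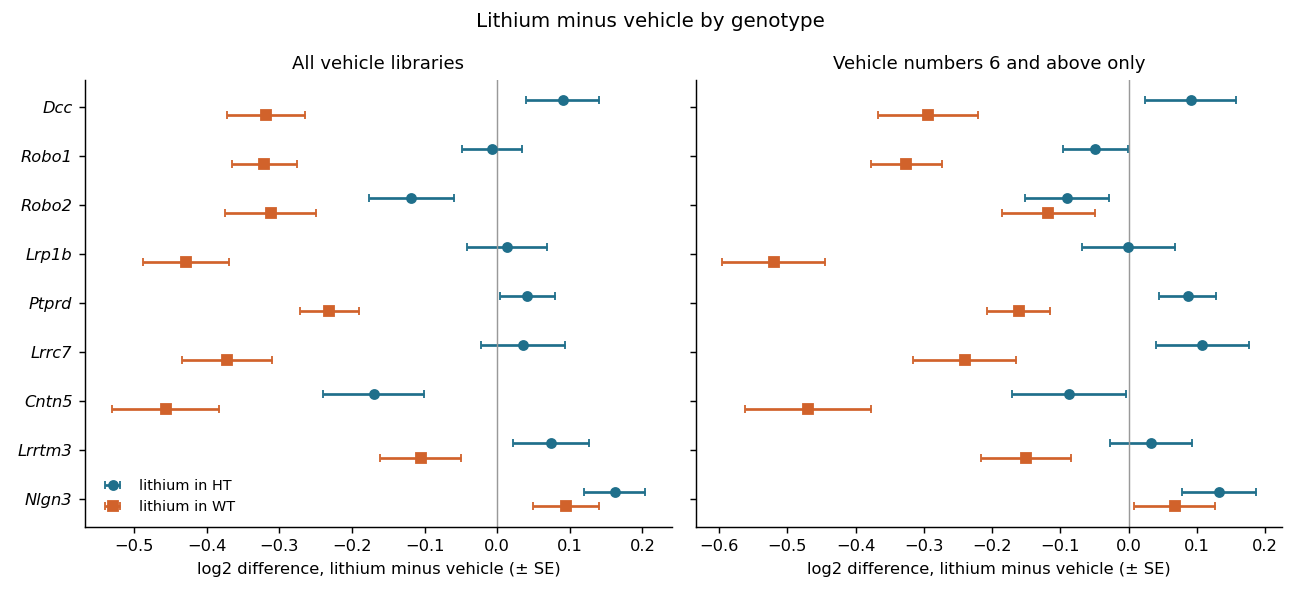
Log2 difference of lithium minus vehicle mice (horizontal axes) for each gene, with its SE, in HT (circles) and WT (squares), against all vehicle libraries (left) and those numbered 6 and above (right, on a slightly wider scale). Squares lie left of circles for every gene in both panels, and the gap for Robo2 is 0.19 on the left and 0.03 on the right.

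By sex, the median of the 9 lithium differences in HT was -0.03 in males and 0.08 in females, and in WT it was -0.41 in males and -0.21 in females. Lrrc7 had the widest gap in WT, at -0.54 (SE 0.09) in males and -0.21 (SE 0.08) in females. Against vehicle mice numbered 6 and above these were -0.33 (SE 0.12) in males and -0.15 (SE 0.09) in females. WT lithium males numbered 3. Without WT lithium male 2 and female 5 the WT medians were -0.28 in males and -0.14 in females, and Lrrc7 was at -0.39 (SE 0.09) in males and -0.09 (SE 0.07) in females.

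WT lithium female 5 and male 2 stood apart from the other WT lithium mice, and the lithium differences of the 9 genes are given without them as well. Their balance of long to short genes was the lowest of the 68 libraries. This balance is the median log2 deviation of the 550 other tested genes spanning at least 300 kb, minus that of genes under 30 kb, each gene centred on its mean. It was -0.20 in female 5 and -0.26 in male 2, and it ran from -0.11 to 0.02 in the other 6 WT lithium mice and from 0.02 to 0.05 in WT vehicle mice numbered 6 and above. The next lowest libraries of the study were close to female 5, at -0.17 in HT fluoxetine female 4 and -0.16 in WT vehicle female 3. The same 2 libraries were the deepest, with 37.5 M and 37.3 M reads, where the next had 36.6 M. They had the highest share of 77 ribosomal protein genes, 1.08 and 1.06% of normalized counts, where the next library also rounded to 1.06% and the median over all libraries was 0.894%. Markers of the choroid plexus (Ttr, Folr1, Kcnj13 and Clic6) summed to 5761 normalized counts in female 5 and 100.2 in male 2, and to at most 458 in WT vehicle mice; none of the 4 was at 0 in all libraries. Markers of the olfactory bulb, a neighbouring region, summed to 588 to 6100 in WT lithium mice and 537 to 27524 in WT vehicle mice, and those of striatal neurons to 7416 to 15116 in WT lithium mice (median 9625) and 5586 to 24528 in WT vehicle mice (median 6472).

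Summed levels of other markers also differed in median between lithium mice and all vehicle mice, with ranges that overlapped. The 6 oligodendrocyte markers summed to a median of 174574 in HT lithium mice and 139994 in HT vehicle mice, and to 176098 in WT lithium mice and 126432 in WT vehicle mice. In vehicle mice numbered 6 and above these medians were 161648 in HT and 189399 in WT, and none of the 6 markers was at 0 in any library. The striatal median was 12940 in HT lithium mice and 7413 in HT vehicle mice. In vehicle mice numbered 6 and above it was 7711 in HT and 12086 in WT. Mitochondrial genes made up a median of 5.57% of normalized counts in HT lithium mice and 5.88% in HT vehicle mice, and 6.30% in WT lithium mice and 7.32% in WT vehicle mice, or 5.59% in those numbered 6 and above. The part of depth, of this balance, of RNA quality and of other cell types in the lithium differences was not tested.

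Without WT lithium female 5 and male 2 the lithium difference in WT kept its sign for all 9 genes and was smaller for 7 of them. It was -0.31 (SE 0.07) for Cntn5, -0.30 (SE 0.05) for Lrp1b, -0.25 (SE 0.05) for Robo1, -0.24 (SE 0.06) for Lrrc7, -0.24 (SE 0.07) for Robo2, -0.20 (SE 0.05) for Dcc and -0.16 (SE 0.04) for Ptprd. The median over the 9 genes was -0.24, and that of the difference of lithium effects was 0.21. Against vehicle mice numbered 6 and above, and without these libraries, Lrp1b was at -0.39 (SE 0.05), Cntn5 at -0.32 (SE 0.08), Robo1 at -0.26 (SE 0.05) and Dcc at -0.18 (SE 0.06). In the same setting the WT differences of Lrrc7 and Ptprd shrank to -0.11 and -0.09. Robo2 was then at -0.04 (SE 0.07) in WT, and its difference of lithium effects turned to -0.05 (SE 0.09). Leaving out lithium libraries cannot create an overlap, so the same 4 genes did not overlap there, which is no further result. Of all genes tested, 0.658% were lower without overlap in that comparison.

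**Figure D3:**
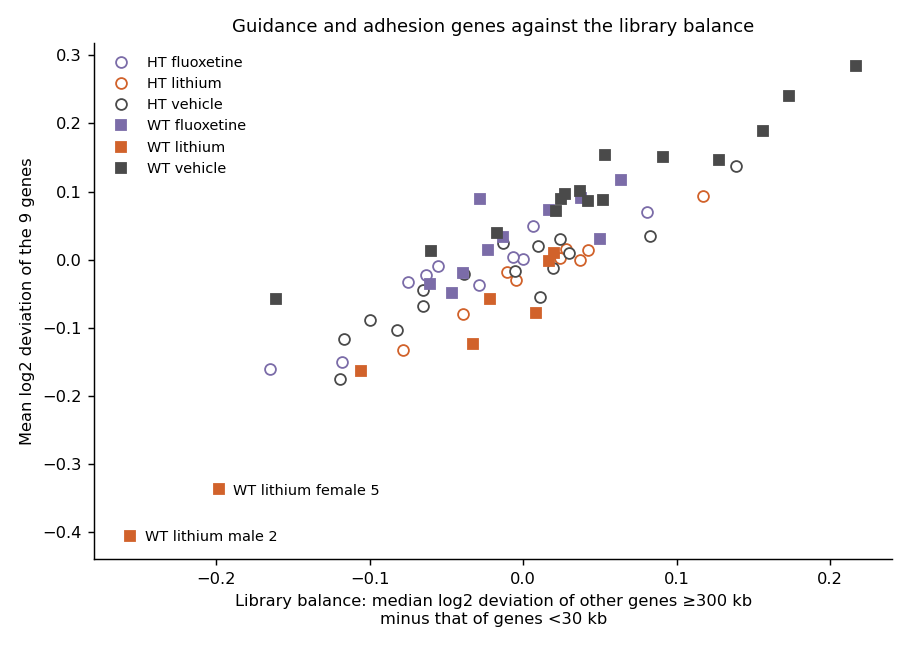
Mean log2 deviation of the 9 genes (vertical axis) against the balance of long to short genes (horizontal axis, log2) in the 68 libraries, with open circles for HT, filled squares for WT and colours for the drug. The points rise together with scatter: at a balance of -0.03, WT lithium male 3 was at -0.12 and WT fluoxetine male 3 at 0.09. WT lithium female 5 and male 2 lie at the lower left end.

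Across the 68 libraries the mean log2 deviation of the 9 genes followed this balance, with a Pearson r of 0.90, and of 0.88 without female 5 and male 2. The points share library and depth, and the 9 genes were left out of the balance. Single genes followed it to different degrees, from an r of 0.86 for Lrrc7 and 0.84 for Ptprd through 0.72 for Lrp1b to 0.47 for Cntn5 and 0.18 for Nlgn3.

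The lithium difference of all other genes varied with span in both genotypes, mostly in opposite directions. Medians of 5 span classes were taken against vehicle mice numbered 6 and above. In HT they were -0.02 under 10 kb, -0.004 from 10 to 30 kb and 0.02 from 30 to 100 kb. From 100 to 300 kb the HT median was 0.03, and for genes of at least 300 kb it was 0.02. In WT the median was 0.02 for 5504 genes under 10 kb and for 5304 genes from 10 to 30 kb, -0.01 from 30 to 100 kb, -0.04 from 100 to 300 kb and -0.08 for 550 genes of at least 300 kb. Of those 550 long genes, 1.27% had a lower WT value than Lrp1b, 1.45% than Cntn5, 5.27% than Robo1 and 6.36% than Dcc. Lrrc7 (11.1%), Ptprd (24.9%) and Robo2 (39.5%) lay nearer the middle of the long genes. Against all vehicle mice the shares were 7.27% for Cntn5, 8.36% for Lrp1b, 11.6% for Lrrc7, 15.8% for Robo1, 16.4% for Dcc, 17.6% for Robo2 and 27.8% for Ptprd. Medians in WT were also taken against vehicle mice numbered 6 and above without WT lithium female 5 and male 2. They were then 0.007 under 10 kb and from 10 to 30 kb, and 0.0003 from 30 to 100 kb. From 100 to 300 kb the median was -0.01, and for the long genes -0.05. The shares were 1.64% for Lrp1b, 2.36% for Cntn5, 4.73% for Robo1, 9.64% for Dcc and for Lrrtm3, 24.0% for Lrrc7, 28.5% for Ptprd and 52.5% for Robo2.

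**Figure D4:**
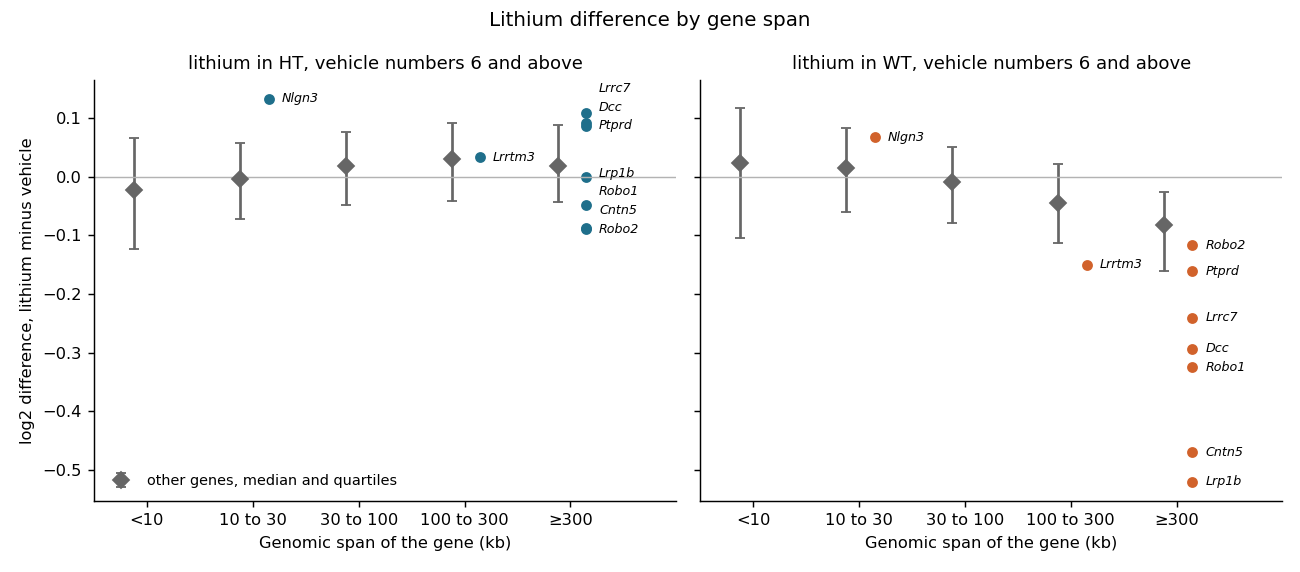
Median and quartiles of the log2 difference of lithium minus vehicle (vertical axis) for other genes in 5 classes of genomic span (horizontal axis, kb), in HT (left) and WT (right), against vehicle libraries numbered 6 and above. Points are the 9 genes in the class of their span. In WT the medians fall to -0.08 at 300 kb and above, and Lrp1b and Cntn5 lie at -0.52 and -0.47.

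The genes with which these proteins work were also measured, in lists chosen with earlier results of these data known. In WT, against all vehicle mice, limma called 36.1% of all genes tested under lithium, 18.6% higher and 17.5% lower. Of 46 other synaptic adhesion genes, 7 rose and 16 fell, with a median log2 difference of -0.07. Lrrc4c, which encodes a netrin-G ligand, fell by 0.37 on the log2 scale (SE 0.07, adjusted p = 4.59e-05), and Slitrk2, a leucine-rich repeat protein that induces synapses, fell by 0.32 (SE 0.06, adjusted p = 4.74e-05). Lrfn2, which binds PSD-95, rose by 0.57 (SE 0.11, adjusted p = 5.76e-05). Lrfn2 also rose under lithium in HT, by 0.41 (SE 0.10, adjusted p = 0.0221), where the call rate was 1.52%.

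Of 26 genes for guidance ligands, other receptors and downstream partners, 4 rose and 4 fell in WT, with a median log2 difference of 0.00. Unc5a, a netrin receptor, rose by 0.47 (SE 0.11, adjusted p = 0.00102). Among ligands, Slit1, which signals through Robo receptors, rose by 0.46 (SE 0.12, adjusted p = 0.00182), and Ntn4, a netrin, fell by 0.45 (SE 0.15, adjusted p = 0.0137). Srgap2, a GTPase activator that acts downstream of Robo, rose in HT by 0.14 (SE 0.03, adjusted p = 0.00825), with 3005 to 3270 normalized counts under lithium and 2634 to 2990 under vehicle. Of 12 contactins and contactin-associated genes, 3 fell in WT (Cntnap2, Cntnap5b and Cntnap5a). Of 12 LDL receptor family genes, 3 fell (Lrp8, Lrp6 and Vldlr) and Lrp1 rose, and of 18 densin partners 2 rose and 3 fell. Of 550 other genes spanning at least 300 kb, 36 rose and 198 fell.

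Most of these calls were lost against vehicle mice numbered 6 and above, where limma called 0.658% of all genes in WT. In the guidance, synaptic adhesion and contactin lists it then called 0 genes, while an unadjusted p under 0.05 was found for 4 lower and 1 higher guidance gene, 13 lower and 1 higher adhesion gene and 4 lower contactin genes. In HT, where limma then called 0.0949% of all genes, Srgap2 and Lrfn2 no longer passed. Of the long genes 1 fell, with 118 lower and 4 higher at an unadjusted p under 0.05. EdgeR and DESeq2 were not run on that subset. Against all vehicle mice and without WT lithium female 5 and male 2, limma called 25% of all genes. Of the long genes 30 then rose and 105 fell, of the synaptic adhesion genes 5 rose and 9 fell, and of the guidance genes 6 rose and 0 fell. Of the contactin list 1 rose and 2 fell, and 1 gene rose and 0 fell in each of the LDL receptor family and densin partner lists. The lithium difference in HT minus that in WT was higher for 32 long genes, 4 synaptic adhesion genes and 1 contactin gene, where limma called 2.8% of all genes; limma called 0% without the same libraries and 0% with vehicle mice numbered 6 and above, where 121 long genes were higher and 1 lower at an unadjusted p under 0.05.

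The comparison of genotypes under fluoxetine shares no library with the lithium and vehicle contrasts and was tested. HT minus WT was negative for 8 of the 9 genes, with a median log2 difference of -0.06. The median was -0.03 (quartiles -0.10 and 0.02) for the 550 other genes of at least 300 kb, and -0.002 for all genes. Of the 9 genes 0 passed in limma, which called 1.98% of all genes. At an unadjusted p under 0.05 there were 3 (Cntn5, Nlgn3 and Lrrc7), where 12.6% of all genes had one. Both genotypes overlapped for all 9, where 0.279% of all genes were higher and 0.0279% lower in HT without overlap. By edgeR and by DESeq2 1 gene passed, Cntn5, where edgeR called 2.04% and DESeq2 2.44% of all genes.

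Cntn5 had 205.0, 203.9, 183.6, 163.6 and 198.6 normalized counts in HT fluoxetine females and 202.0, 198.7, 198.8, 190.5 and 203.8 in males. The WT fluoxetine females had 230.1, 210.0, 222.9, 231.6 and 199.1, and the males 213.3, 245.6, 277.0, 253.1 and 249.1. Every HT value lay below the lowest WT male, and the groups overlapped through WT female 5 alone. The log2 difference was -0.25 (SE 0.07), with an adjusted p of 0.0515 in limma, 0.0463 in edgeR and 0.0281 in DESeq2, and from 0.0130 to 0.0554 over the alternatives other than leaving out 1 library. HT was lower in both sexes, at -0.31 (SE 0.10) in males and -0.20 (SE 0.10) in females.

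Nlgn3 ran the other way, with 3480 to 4545 normalized counts in HT fluoxetine mice (median 4075) and 3244 to 4092 in WT fluoxetine mice (median 3512). The log2 difference was 0.14 (SE 0.05), with an adjusted p of 0.0822 in limma, and from 0.0609 to 0.186 over the same alternatives. Lrrc7 had 2105 to 2618 in HT (median 2464) and 2408 to 2831 in WT (median 2664), a difference of -0.13 (SE 0.06, adjusted p = 0.368 in limma). Dcc, Robo1, Robo2, Lrp1b, Ptprd and Lrrtm3 differed by -0.09 to -0.02, with adjusted p of at least 0.560 in limma.

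Among the lists under fluoxetine, Ntn5, a netrin family gene on chromosome 7, was higher in HT by 1.37 on the log2 scale (SE 0.14, adjusted p = 3.06e-10 in limma), with 29.9 to 69.5 normalized counts in HT and 13.9 to 23.6 in WT, without overlap. Ntn5 was also higher in HT under lithium, by 1.13 (SE 0.16, adjusted p = 1.32e-06, call rate 2.51%), and under vehicle, by 1.59 (SE 0.12, adjusted p = 8.6e-17, call rate 15%). HT and WT vehicle libraries were unevenly spread over the library sets. Ntn3, another netrin, fell by 0.24 in HT fluoxetine mice (SE 0.07, adjusted p = 0.0352), and Ptprf, a LAR family relative of Ptprd, fell by 0.16 (SE 0.04, adjusted p = 0.0289). These were the 3 genes that passed in the guidance and synaptic adhesion lists. In the contactin, LDL receptor family and densin partner lists limma called 0 genes, with 1, 6 and 1 lower at an unadjusted p under 0.05; edgeR and DESeq2 each called 1 LDL receptor family gene. Of these 6 LDL receptor family genes Lrp4, a receptor for agrin, was nearest to passing, at -0.26 (SE 0.08, adjusted p = 0.0523).

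**Figure D5:**
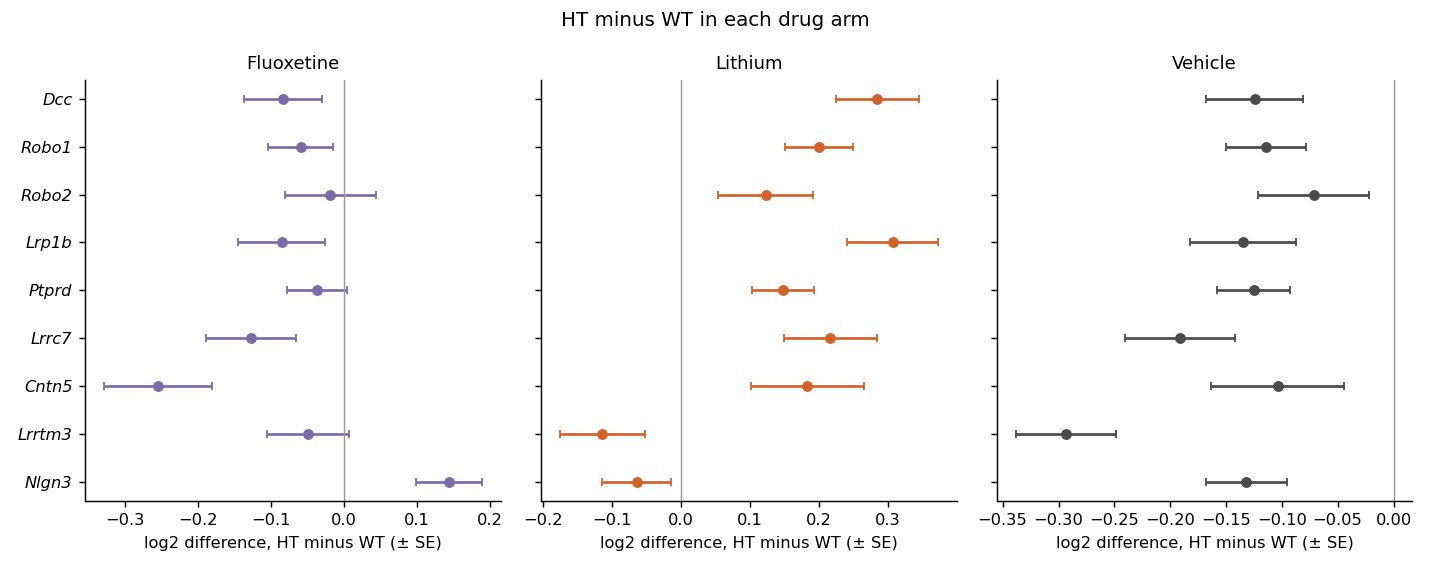
Log2 difference of HT minus WT mice (horizontal axes) for each gene, with its SE, under fluoxetine (left), lithium (middle) and vehicle (right), each panel on its own scale with 0 marked by a line. Lrp1b and Dcc are at 0.31 and 0.28 under lithium, and all 9 genes are below 0 under vehicle.

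Under lithium and vehicle the genotypes are set side by side without test, since the rule used those libraries. HT minus WT under lithium was 0.31 (SE 0.07) for Lrp1b, 0.28 (SE 0.06) for Dcc, 0.22 (SE 0.07) for Lrrc7 and 0.20 (SE 0.05) for Robo1, and -0.11 (SE 0.06) for Lrrtm3. The median over the 9 genes was 0.18. Without WT lithium female 5 and male 2 the median was 0.08, with Lrp1b at 0.18 (SE 0.06), Dcc at 0.17 (SE 0.06), Robo1 at 0.13 (SE 0.05), Lrrc7 at 0.09 (SE 0.06) and Lrrtm3 at -0.08 (SE 0.07). All 9 overlapped between genotypes, where 0.446% of all genes were higher and 0.151% lower in HT without overlap. Under vehicle all 9 differences were negative, from -0.29 (SE 0.05) for Lrrtm3 to -0.07 (SE 0.05) for Robo2, with a median of -0.13. Of the vehicle libraries, 8 HT were in a set without WT vehicle libraries, and 10 WT were in a set with 2 HT. Genotype and library set thus cannot be fully told apart there. With vehicle mice numbered 6 and above only, which are of 1 set, 8 of 9 differences were negative. The median was -0.13, and Robo2 was at 0.10 (SE 0.07).

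Fluoxetine mice were compared with the same vehicle mice as lithium mice. In HT the fluoxetine difference was 0.15 (SE 0.04) for Nlgn3 and 0.12 (SE 0.05) for Lrrtm3, and the other 7 lay between -0.08 and 0.01. Within the set that fluoxetine shares with 8 HT vehicle mice, Nlgn3 was at 0.18 (SE 0.05) and Lrrtm3 at 0.21 (SE 0.06). In WT the fluoxetine difference was -0.14 (SE 0.04) for Ptprd, -0.13 (SE 0.04) for Robo1 and 0.12 (SE 0.07) for Cntn5, the gene with the largest lithium difference in WT against all vehicle mice. Fluoxetine libraries and WT vehicle libraries share no library set, so in WT the drug and the set cannot be told apart.

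Males and females were compared over all groups. Male minus female differences were largest for Robo2, at 0.07 (SE 0.04) in log2, and at most 0.03 in size for the other 8. In all 3 tools 0 of 9 genes passed, where limma called 0.1%, edgeR 0.106% and DESeq2 0.139% of all genes. In each tool 1 gene, Robo2, had an unadjusted p under 0.05, which 6.18% of all genes had in limma, and its adjusted p in limma was 0.797. The difference between the sexes in the genotype effect under fluoxetine passed for 0 of 9 genes in each tool, where limma called 0.485%, edgeR 0.508% and DESeq2 0.96% of all genes. At an unadjusted p under 0.05 there were 0 genes in limma, against 11.6% of all genes, and 1 in edgeR and in DESeq2, and the smallest adjusted p in limma was 0.452, for Ptprd.

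The 9 genes varied together to different degrees. Over the 21 pairs among the 7 genes other than Lrrtm3 and Nlgn3, Pearson's r over 68 libraries ran from 0.36 to 0.86 with a median of 0.65, and after centring each group from 0.29 to 0.83 with a median of 0.49. The highest was between Ptprd and Lrrc7. Nlgn3 had an r of -0.25 to 0.09 with these 7 and of 0.41 with Lrrtm3, and after centring each group 0.11 (Cntn5) to 0.35 (Robo1) with the 7 and 0.43 with Lrrtm3. The genes most like the mean of the 9 (z-scores, 68 libraries, mean count of at least 100) were Zfp827 (r = 0.88), Lin7a (0.87), Samd12 (0.87), Ash1l (0.85), Cntnap5b (0.85), Plppr4 (0.85), Trim44 (0.85), Tnrc6b (0.84), Adgrl3 (0.84) and Unc80 (0.84). Their spans ran from 41.7 kb (Plppr4) to 805 kb (Adgrl3). These correlations share libraries and depth with the balance of long to short genes described above.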

How the data were processed

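The authors deposited 1 table of signal values, each the read count of a gene divided by the size factor of its library and called a normalized count here. Per the submitters' processing notes, Salmon 0.11.2, R 3.6.0, DESeq2 1.19.11 and GRCm38 were used, with no role given. Recovered reads came out whole for 100% of values within 0.01. Reads numbered 22.4 M to 37.5 M per library.

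Because values are normalized, the test was limma 3.58.1 (trend, robust) on log2(value + 1), in 1 fit of all 12 groups with sexes averaged. Genes needed a mean of 5 or more. Adjusted p-values are Benjamini-Hochberg over 17922 genes, and unless another tool is named they come from limma; a gene passed under 0.05. The log2(value + 1) scale understates changes of low genes. EdgeR 4.0.16 and DESeq2 1.42.0 were run on recovered reads. On data simulated for the fluoxetine genotype comparison, limma recovered 81% of genes changed 1.5-fold and 99% changed 2-fold, among 17922 genes, with 9 false calls. The simulation had 1 spread for all genes and no library sets. It gives no recovery for changes as small as those of the 9 genes under fluoxetine.

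The genes, lists and tests were chosen with earlier results of these data known. Named were the 9 genes, up to 4 list genes of smallest p per comparison, the 10 genes most like the 9, and Adnp. Overlapping and antisense genes are uncertain, since the sources used here do not say whether counting used strand. Alternatives changed the pseudocount (0.5, 10), the filter (none, 50), scaling, tool, samples and replicate block. Replicate numbers did not pair libraries.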

Additional observations from a re-analysis of the deposited data

Results flagged for a closer look

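In 8 of 99 combinations of a gene and a group of 4 to 8 mice, the highest or lowest mouse lay far from its nearest neighbour relative to the range of the group. Chance flags about 1 in 20 groups. WT lithium female 5 had 471.6 normalized counts of Dcc, where the next lowest female of its group had 611.6, and 6039.6 of Ptprd, where the next had 7205.8. HT fluoxetine male 3 was highest in its group for Lrp1b (1468.9, next 1396.8) and for Ptprd (7978.8, next 7514.8). WT vehicle male 7 was lowest for Dcc (678.8, next 758.5). HT vehicle female 5 was highest for Cntn5 (263.9, next 203.1), HT vehicle male 3 lowest for Nlgn3 (3172.7, next 3560), and WT fluoxetine male 3 highest for Nlgn3 (4087.9, next 3566.9).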

How the results depend on the processing

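Under fluoxetine, 1 of the 9 genes (Cntn5) passed in place of 0 with a pseudocount of 10, by edgeR, by DESeq2, with only the groups compared, within 1 library set and with the replicate block, where its adjusted p was 0.0460. Leaving out 1 library gave 0 to 2 genes. Cntn5 passed without HT fluoxetine female 1 (adjusted p = 0.0409) or 2 (0.0490), WT female 5 (0.0441) or WT male 1 (0.0332), and Nlgn3 without HT female 2 (0.0451) or 3 (0.0452), WT female 2 (0.0436) or 3 (0.0319) or WT male 3 (0.0396). Leaving out 1 library left the lithium median in WT at -0.36 to -0.26 and that of HT minus WT under lithium at 0.11 to 0.24. Without WT lithium female 5 and male 2, chosen after seeing the data, the genotype median under lithium was 0.081, and with vehicle mice numbered 6 and above the lithium median in WT was -0.18. In that last setting the difference of lithium effects of Robo2 reversed to -0.047. The causes were not tested. The other alternatives moved the medians over both sexes by less than 0.0816 in log2, the SD within groups of the median of the 9 genes. Single genes had SDs within groups from 0.088 (Ptprd) to 0.164 (Cntn5). These SDs are spreads between libraries and not the error of a difference. Within the limit of 0.0816, the lithium median in WT went from -0.32 to -0.24 against vehicle mice numbered 6 and above. It was also -0.24 against all vehicle mice without WT lithium female 5 and male 2. Equal replicate numbers did not pair libraries across groups, since 10 of 68 libraries correlated best with their own number. Among vehicle mice, however, numbers 6 and above went with the library set. The replicate block changed no other count of the 9 genes. With 3 WT lithium males, values by sex rest on few mice.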
